A study of Mus musculus with 2 samples.

Results

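The chemokine ligand genes were taken as the protein-coding genes of chromosomes 1 to 19 whose symbol starts with Ccl or Cxcl and a digit, together with Xcl1, Cx3cl1 and Ppbp, in the GENCODE M21 basic annotation of the mouse genome build mm10. Ccl25 was left out. The rule found 37 genes among 20753 protein-coding genes of these chromosomes, and it used no measured value. DNase-seq, which maps open DNA as the places where the enzyme DNase I cuts most, was done on the thymus of 2 females of the B6CASTF1/J strain at an age of 14 days. Mice of this strain are hybrids that carry 1 genome copy from C57BL/6J and 1 from CAST/EiJ. The labels call the samples biological replicates 1 and 2 and give them different animal numbers but a shared donor identifier. There was 1 group, with no treatment, mutant or control, so the values below describe 2 animals and carry no test between conditions.

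Chemokines are small secreted proteins that bind receptors on the surface of moving cells and steer them along a gradient. Some are made at a steady level and place cells in lymphoid organs, and others are induced by interferon, bacterial products or antigen. In the thymus, epithelial and other stromal cells make Cxcl12, Ccl19 and Ccl21a, which guide developing T cells (thymocytes) through the receptors Cxcr4 and Ccr7. Epithelial and dendritic cells make Ccl17 and Ccl22, which act on Ccr4.

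Few chemokine ligand genes had an open promoter in this tissue. A promoter was called open when a deposited peak lay within 500 bp of any annotated transcription start site (TSS) of the gene in both replicates. This held for 4 of the 37 genes (10.8%), against 59.4% of all protein-coding genes of chromosomes 1 to 19. The 4 genes were Ccl6 and Ccl4 on chromosome 11, Ccl27a on chromosome 4 and Cxcl10 on chromosome 5. In bulk tissue, a promoter that is open in few cells and one that is weakly open in many cells cannot be told apart.

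The sequences of the open promoters that lie outside exons and outside repeated DNA are shown first, because the footprints and motifs described below lie in them. Each is read from the RefSeq GRCm38.p6 assembly, whose chromosomes are those of mm10, 5′ to 3′ on the strand of the gene. The reference carries no CAST/EiJ allele. Capitals mark bases in a footprint, a short stretch protected from cutting within open DNA: for Cxcl10 in both replicates, and for Ccl4 and Ccl6 in replicate 1 alone, since replicate 2 had no footprint in those peaks.
Cxcl10 promoter, chr5:92348890-92349040, minus strand: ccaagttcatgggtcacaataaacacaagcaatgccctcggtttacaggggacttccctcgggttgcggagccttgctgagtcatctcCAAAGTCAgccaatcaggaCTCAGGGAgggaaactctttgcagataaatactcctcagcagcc
Ccl4 promoter, chr11:83662301-83662460, plus strand: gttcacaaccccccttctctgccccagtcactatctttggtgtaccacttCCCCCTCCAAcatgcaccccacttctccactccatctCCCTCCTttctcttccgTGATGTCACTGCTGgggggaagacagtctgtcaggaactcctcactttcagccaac
Ccl6 promoter, chr11:83593088-83593240, minus strand: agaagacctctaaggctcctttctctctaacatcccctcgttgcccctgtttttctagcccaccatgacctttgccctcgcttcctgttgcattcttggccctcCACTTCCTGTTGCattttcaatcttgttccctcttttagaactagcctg

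The second set is shown because these genes carry one shared motif at promoters that had no peak in both replicates. It gives the bases from 120 to 20 before the TSS of the 4 neutrophil-attracting genes with a match to the NF-kB motif, all on the plus strand of chromosome 5 in one cluster. Here capitals mark matches to the NF-kB motif and to the TATA motif.
Cxcl5, chr5:90759258-90759358: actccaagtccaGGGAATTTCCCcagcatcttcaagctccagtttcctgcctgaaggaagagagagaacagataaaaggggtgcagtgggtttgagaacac
Cxcl3, chr5:90785983-90786083: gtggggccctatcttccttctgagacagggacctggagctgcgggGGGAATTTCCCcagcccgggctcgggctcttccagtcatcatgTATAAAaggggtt
Cxcl1, chr5:90891121-90891221: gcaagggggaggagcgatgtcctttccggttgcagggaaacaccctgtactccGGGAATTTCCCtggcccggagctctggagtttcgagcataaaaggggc
Cxcl2, chr5:90903751-90903851: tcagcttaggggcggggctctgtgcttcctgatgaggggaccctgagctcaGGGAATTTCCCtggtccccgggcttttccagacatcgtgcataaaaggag

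The third set gives distal peaks, those that do not reach within 500 bp of the TSS of any protein-coding gene. They are, among the distal peaks held by both replicates near Ccl3 and Ccl4, Ccl28, Ccl17 and Ccl1, those with the highest mean of the log2 strengths of both replicates, read on the strand of the gene (for the first, of Ccl3), with capitals for bases in a footprint of both replicates.
Ccl3 and Ccl4, between genes, chr11:83640241-83640460, minus strand: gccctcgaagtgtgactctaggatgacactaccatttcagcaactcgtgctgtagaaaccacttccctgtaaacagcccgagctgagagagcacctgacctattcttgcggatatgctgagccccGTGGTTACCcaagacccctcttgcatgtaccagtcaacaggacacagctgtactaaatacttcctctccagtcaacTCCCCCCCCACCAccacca
Ccl28, intron, chr13:119631861-119632060, plus strand: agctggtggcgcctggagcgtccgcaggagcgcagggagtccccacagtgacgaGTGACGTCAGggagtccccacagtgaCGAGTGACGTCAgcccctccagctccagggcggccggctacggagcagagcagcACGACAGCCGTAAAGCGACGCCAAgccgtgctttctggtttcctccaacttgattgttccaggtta
Ccl17, between genes, chr8:94812881-94813080, plus strand: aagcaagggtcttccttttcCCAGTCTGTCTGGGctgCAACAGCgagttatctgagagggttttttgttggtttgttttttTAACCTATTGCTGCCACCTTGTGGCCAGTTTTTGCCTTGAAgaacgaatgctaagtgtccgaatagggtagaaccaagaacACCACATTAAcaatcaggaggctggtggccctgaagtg
Ccl1, between genes, chr11:82174921-82175100, minus strand: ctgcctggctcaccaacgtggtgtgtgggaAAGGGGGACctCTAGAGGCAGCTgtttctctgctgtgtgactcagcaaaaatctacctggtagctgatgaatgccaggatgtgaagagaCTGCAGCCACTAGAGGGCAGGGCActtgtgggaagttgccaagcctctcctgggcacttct

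Replicate 1 had 97051 peaks and replicate 2 had 108010 in the longer of the authors' lists, and the read depth is unknown. Some calls in a list overlap each other, with 994 such pairs in replicate 1 and 3088 in replicate 2, and each call was counted. The promoters of all 12 thymocyte markers (among them Cd3e, Cd4, Cd8a, Lck and Rag1) were open in this tissue. Of the markers of other cells, 5 of 9 were open for thymic epithelium (Ly75, Epcam, Cldn4, Aire and Cd83) and Foxn1, Psmb11, Krt5 and Krt8 were closed. For macrophages and dendritic cells 3 of 8 were open (Cd68, Itgam and Lyz2) and Csf1r, Adgre1, Itgax, Spi1 and Clec9a were closed. For endothelium and mesenchyme 4 of 8 were open, for natural killer (NK) and innate lymphocytes 2 of 4 (Eomes and Tbx21), and for B cells 0 of 4. Over all genes of chromosomes 1 to 19 the share was 59.4%, above that of each of these lists of other cells. An open marker thus does not by itself show that its cell type was detected. The cells of these lists make most of the ligands below, and the part of their numbers in the closed promoters was not tested.

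**Figure D1:**
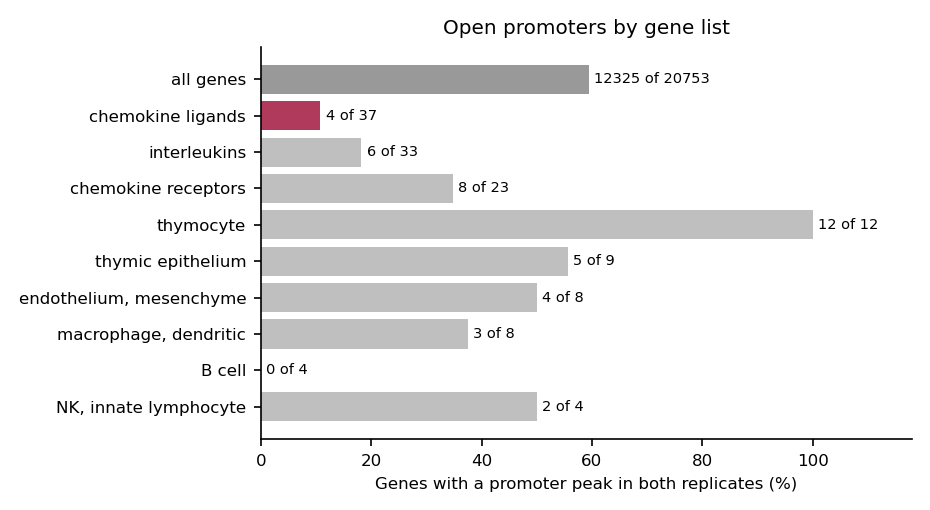
Percentage of genes in each list with a promoter peak in both replicates, with counts beside the bars; the lower 6 lists are cell type markers. Chemokine ligands stood at 4 of 37 and thymocyte markers at 12 of 12. Interleukins are drawn without the receptor genes that their symbol rule also took.

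The strength of a peak below is the signal the authors deposited for it, a number without unit. Strengths are scaled by a factor per sample whose rule is unknown here, so they are read within a replicate and not compared between replicates. The open chemokine promoters were weak beside other open promoters. The strongest promoter peak of the 12325 genes open in both replicates had a median strength of 6.19 in replicate 1 and 4.08 in replicate 2. All 4 chemokine promoters lay below the median of the replicate in each animal, as the plot of promoter strengths shows.

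Among the homeostatic homing chemokines, which place lymphocytes in resting tissue, 1 of 9 promoters was open. It belonged to Ccl27a, a ligand of Ccr10 that draws T cells to skin. Its stronger promoter peak (chr4:41774101-41774280, across one of its start sites, the same bounds in both replicates) reached 3.66 in replicate 1 and 2.52 in replicate 2, with 4 and 3 footprints. In replicate 1, 35.3% of open promoters were weaker, and in replicate 2 it was 33.2%. A weaker peak farther into the gene had strengths of 0.826 and 0.691. Ccl27a was thus the strongest of the chemokine promoters in each replicate. Of the 32-base words of its promoter window, 37.9% occur once in the genome, and 54.4% of those in the stronger peak do. Reads from near-identical copies may therefore be part of its signal, and how the aligner placed such reads is not stated in the labels or files used.

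The thymic guidance genes Ccl19 and Ccl21a had no promoter peak in either replicate, and neither did Ccl21b and Ccl27b, near-identical copies in the same region of chromosome 4. Their promoters are largely repeated sequence: 15.5% of words were unique at Ccl19, 26.7% at Ccl21a and 0% at Ccl21b and Ccl27b. A closed promoter cannot be told apart there from one to which reads were not assigned. The longest stretch without a peak in this cluster was 1025 kb in both replicates. With the 5 genes whose promoters hold mostly repeated words left out, 3 of 32 chemokine promoters were open.

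Cxcl12, the ligand of Cxcr4 that retains early progenitors, had promoter peaks in replicate 2 alone. There were 4 calls with strengths from 0.150 to 0.219, one of them in the stricter of the authors' lists. The calls at chr6:117168681-117168880 and chr6:117168681-117169168 overlap and so are not separate places. Its promoter is rich in CpG dinucleotides, with an observed to expected CpG ratio of 0.782, the highest of the family. Cxcl14, made by many epithelia, had a promoter peak of 0.234 in replicate 1 alone and a CpG ratio of 0.717. Cxcl13, which attracts B cells through Cxcr5, and Ccl28, which acts on Ccr10 and Ccr3 at mucosal surfaces, had none.

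Of the 4 chemokines made by T and NK cells, Ccl4 was open. Ccl4 is secreted by activated T cells, NK cells and macrophages. Its promoter peak had a strength of 1.13 in replicate 1 (chr11:83662241-83662460) and of 0.363 in replicate 2 (chr11:83662301-83662540), wholly upstream of the TSS in both. In replicate 1, 15.9% of open promoters were weaker, and 3.97% in replicate 2. The replicates thus placed it differently: replicate 1 had 4 footprints in the peak and a lowest false discovery rate of 8.2e-20, and replicate 2 had 0 footprints and 1.9e-04. Xcl1, which attracts cross-presenting dendritic cells through Xcr1, had a weak peak of 0.223 in replicate 1 alone, centred 444 bp upstream of its TSS. Ccl3, the neighbour of Ccl4 and a ligand of Ccr1, and Ccl5, which memory T cells and NK cells make, had no promoter peak.

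Both CCR4 ligands, Ccl17 and Ccl22, had closed promoters. Of the interferon-inducible CXCR3 ligands, Cxcl10 was open and its neighbour Cxcl9 was closed. Both proteins recruit activated T cells. The Cxcl10 peak had the same bounds in both replicates (chr5:92348841-92349040) and spanned the TSS. Its strength was 1.61 in replicate 1 and 0.904 in replicate 2, with 20.8% and 13.9% of open promoters weaker and with 4 and 3 footprints. Among the open chemokine promoters in unique sequence, Cxcl10 was the strongest in each replicate.

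None of the 6 neutrophil-attracting CXC chemokines was open in both replicates. Cxcl1 had a peak of 0.265 in replicate 1 alone downstream of its TSS, and Cxcl3 one of 0.167 in replicate 2 alone, centred 327 bp upstream. Cxcl2 and Cxcl5, which act on the same receptor Cxcr2, the platelet gene Ppbp and the lung gene Cxcl15 had none. All 7 monocyte- and eosinophil-attracting CC chemokines were closed in both replicates: Ccl2, Ccl7, Ccl8 and Ccl12, which draw monocytes, and the eotaxins Ccl11, Ccl24 and Ccl26, which act on Ccr3.

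Of the CCR1 ligands of myeloid cells, Ccl6 was open and Ccl9 was closed. The Ccl6 peak spanned the TSS (chr11:83593021-83593240 in replicate 1 and chr11:83593041-83593253 in replicate 2) with strengths of 0.467 and 0.340. It was among the weakest open promoters, with 5.40% and 3.45% of them weaker. Of the membrane-anchored chemokines, Cx3cl1, the ligand of Cx3cr1 on monocytes and NK cells, had a peak of 0.299 in replicate 2 alone, and Cxcl16, the ligand of Cxcr6, had none. The remaining genes Ccl1 (a ligand of Ccr8), Ccl20 (a ligand of Ccr6) and Cxcl17 (made by mucosal epithelium) had none.

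**Figure D2:**
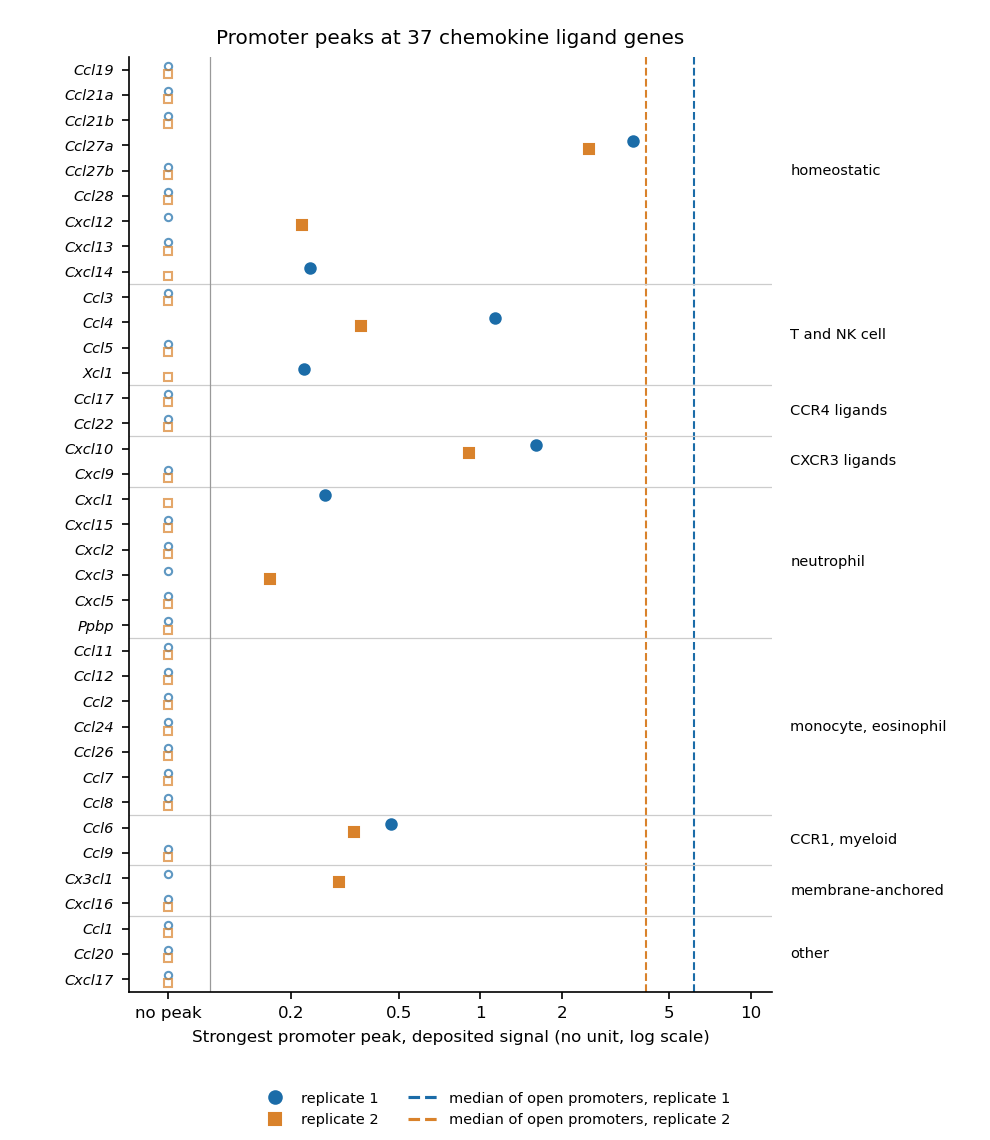
Deposited signal of the strongest promoter peak of each chemokine ligand gene (log axis, no unit) in replicate 1 (circles) and replicate 2 (squares), by role; open symbols at the left mean no peak, and dashed lines are the medians of all open promoters (6.19 and 4.08). Filled symbols in both colours appear for Ccl27a, Ccl4, Cxcl10 and Ccl6, all left of the line of their replicate.

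Each replicate alone gave 7 open chemokine promoters, against 61.2% of all genes in replicate 1 and 62.2% in replicate 2. A peak in 1 replicate alone was found at 6 of 37 genes (16.2%), against 4.56% of all genes. Genes open in both replicates cannot be among them, and they made up 10.8% of the chemokines but 59.4% of all genes. The shares of 16.2% and 4.56% therefore do not rest on a like base, and their difference was not tested. The 6 genes were Xcl1, Cxcl14 and Cxcl1 in replicate 1 and Cxcl3, Cxcl12 and Cx3cl1 in replicate 2, with strengths from 0.150 to 0.299. Such weak calls in a single animal are not counted as open. They were not all alike: the Cx3cl1 call and 1 Cxcl12 call were in the stricter list. Their lowest false discovery rates were 2.2e-04 and 1.1e-04, near the 1.9e-04 of the Ccl4 call in the same replicate 2. With the stricter list, 4 of 37 promoters (10.8%) had a peak in both replicates, against 55.5% of all genes, and they were the same 4. The false discovery rate track came from the same alignments of each sample as the peaks, so its counts are not separate support. A base under 0.05 within 500 bp of a TSS was present in both replicates at 4 genes, against 60.3% of all genes. The 27 genes without a peak in either replicate had no such base in either. Among all genes without a promoter peak, 0.495% had one in both.

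The promoters of the family are poor in CpG, and CpG-poor promoters are open less often over all genes. The median CpG ratio within 500 bp of the outermost TSS was 0.206 for the chemokines and 0.585 for all genes. Below a ratio of 0.4, 2 of 29 chemokine promoters were open (Ccl4 and Ccl6), against 16.2% of all such genes. At 0.4 or more, 2 of 8 were open (Ccl27a and Cxcl10), against 85.5%. The closed promoters at 0.4 or more were those of Cxcl9 (0.406), Cxcl1 (0.454), Cx3cl1 (0.481), Cxcl16 (0.607), Cxcl14 (0.717) and Cxcl12 (0.782). The share of open chemokine promoters was below that of all genes in both classes, but the classes do not match CpG content. Cxcl10 (0.401), Cxcl9, Ccl27a (0.440), Cxcl1 and Cx3cl1 lay just above the cut and below the median of all genes.

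Receptor promoters were open more often than ligand promoters by count. Of 23 chemokine receptor genes, 8 (34.8%) were open, among them Cxcr4, Ccr7, Ccr4 and Ccr9. Cxcr4 had promoter strengths of 7.17 in replicate 1 and 7.55 in replicate 2, Ccr7 of 6.25 and 2.38, and Ccr4 of 4.08 and 1.40. The open receptors included those that thymocytes use to read Cxcl12, Ccl19 and Ccl21a, and Ccl17 and Ccl22, whose own promoters were not open in both replicates. Ccr9 had strengths of 3.99 and 2.22, but a start site of Slc6a20a lies in its promoter window too. Of 37 genes with an interleukin symbol, 9 (24.3%) were open. That symbol rule also took the receptors Il7r, Il9r, Il21r and Il23r, and without them 6 of 33 (18.2%) were open. All these shares lay below the 59.4% of all genes of chromosomes 1 to 19. Among CpG-poor promoters of these chromosomes, 5 of 20 receptors and 5 of 30 interleukins without receptors were open, against 16.2% of all such genes. The difference between these lists was not tested.

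Motifs were searched on both strands from 250 bases before to 50 after the outermost TSS, each motif by itself, so that matches may overlap. An NF-kB match was present at 8 of 37 chemokine promoters (21.6%) and at 5.08% of all promoters. The 8 genes were Ccl20, Ccl5, Ccl9, Cxcl5, Cxcl3, Cxcl1, Cxcl2 and Cxcl10. The 4 neutrophil-attracting genes shown above shared the match GGGAATTTCC, which started 108 bp upstream of the TSS at Cxcl5, 75 bp at Cxcl3, 67 bp at Cxcl1 and 69 bp at Cxcl2. No peak of either replicate covered any of these 4 matches.

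At Cxcl10 the peak did cover such matches. GGGACTTCCC started 103 bp upstream of the TSS and lay in the peak of both replicates, outside any footprint. A further match at 159 bp reached the edge of the peak. The AP-1 motif (TGANTCA) had a match 74 bp upstream, in the peak of both replicates and touching a footprint of replicate 1. A match to the interferon response element ISRE started 213 bp upstream, outside the peak in both. The NF-kB matches of the other 7 genes lay outside peaks.

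The TATA motif (TATAAA or TATATA within 50 bases before the TSS, on the strand of the gene) was present at 9 of 37 chemokine promoters (24.3%) and at 4.64% of all. All 9 were among the 29 CpG-poor promoters, where the share over all genes was 9.55%. They were Ccl7, Ccl12, Ccl8, Ccl5, Ccl4, Ppbp, Cxcl3, Cxcl15 and Ccl24, of which only Ccl4 was open in both replicates. The AP-1 motif was present at 18.9% of chemokine promoters and 6.67% of all, ISRE at 8.11% and 3.54%, the STAT motif (TTCNNNGAA) at 13.5% and 7.84%, and the RUNX motif (TGTGGT) at 24.3% and 15.1%. The ETS motif (GGAA with A or C before it and A or G after it) was present at 78.4% and 65.6%, and the CTCF motif at 0% and 0.564%. Among the CpG-poor promoters alone, NF-kB matches were present at 6 of 29 chemokines and 4.71% of all, AP-1 at 5 of 29 and 10.9%, STAT at 4 of 29 and 10.2%, RUNX at 8 of 29 and 22.0%, and ETS at 23 of 29 and 65.8%. ISRE went the other way there, at 1 of 29 chemokines and 4.83% of all. A match describes the letters of the sequence and not a bound site.

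Distal peaks were sparse around most chemokine genes and dense around a few. In the gene body with a flank of 25 kb at either end, the median chemokine gene held 1.91 distal peaks per 100 kb in replicate 1 and 3.59 in replicate 2. Over all genes the medians were 3.92 and 5.12. The median of the 2-replicate means was 2.88 for the chemokines (SD of the replicate medians 1.18, n = 2) and 4.62 for all genes. Genes with a body under 15 kb, which include 35 of the chemokines, had 4.62 as well, and those 35 chemokines had 2.72. Some neighbouring members share windows and peaks. With gaps of at most 500 kb between members, 29 of the 37 genes lie in 7 clusters and the other 8 stand alone. Not every gene of a cluster shares its window with another member, and Ccl1 and Ccl27a do not.

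No distal peak in either replicate was found at 10 of 37 genes (27.0%), against 12.1% of all genes and 20.3% of those with a body under 15 kb. The 10 were Ccl12 and Ccl8, Ccl6, the repeated genes Ccl21b, Ccl27b, Ccl19 and Ccl21a, and the neutrophil cluster genes Ppbp, Cxcl3 and Cxcl15. Ccl6 thus had an open promoter without a distal peak in its window. In the windows of the repeated genes, 18.7% of words were unique at Ccl19, 29.7% at Ccl21a, 0.0770% at Ccl21b and 0.0493% at Ccl27b. A window without peaks cannot be told apart there from one to which reads were not assigned. The 27.0% therefore counts genes that could not be read. For the neutrophil group as a whole the median was 0.957 per 100 kb in each replicate.

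The densest windows were those of Cxcl17 (14.3 per 100 kb in replicate 1 and 15.9 in replicate 2), Ccl3 (11.6 and 7.77), Ccl17 (7.75 and 9.69), Ccl28 (9.93 and 7.45), Ccl4 (9.60 and 7.68) and Cxcl16 (7.14 in both). Every one of these 6 lay above the median of all genes in both replicates. In several of these windows other genes had the nearest TSS. At Cxcl16 this was Arrb2 for all 4 distal peaks of each replicate, the strongest of them (3.11 and 1.18) in an intron of that gene. At Ccl28 it was Tmem267 for 3 of 8 peaks in replicate 1 and 3 of 6 in replicate 2. At Cxcl17 it was Lipe, the gene of hormone-sensitive lipase, for 5 of 9 and 6 of 10. The strongest distal peak of the Cxcl17 window lay in an exon of Lipe in each replicate, but at different places: at 9.75 in replicate 1, where its counterpart in replicate 2 had 3.28, and at 5.88 in replicate 2, where its counterpart in replicate 1 had 6.79. In the order of the means, the next gene after Cxcl16 was Ccl26, at 3.76 and 7.53 per 100 kb, so that its replicates differed by more than its mean (5.65) did from that of Cxcl16.

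**Figure D3:**
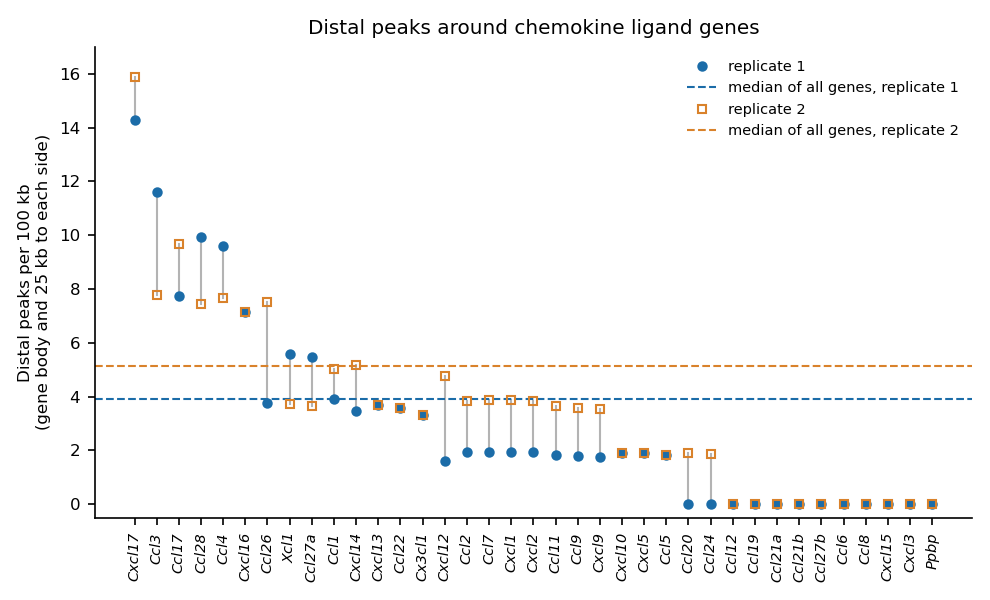
Distal peaks per 100 kb in the window of each of the 37 genes (its body with flanks of 25 kb), ordered by the mean of replicate 1 (filled circles) and replicate 2 (open squares), with the medians of all genes as dashed lines (3.92 and 5.12). The 6 genes at the left, from Cxcl17 to Cxcl16, lie above both lines in both replicates, and the 10 at the right are at 0.

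Ccl3 and Ccl4 shared a group of distal peaks that lay nearer to Ccl3. The one whose sequence is shown above lay between genes 9005 bp downstream of the Ccl3 TSS and 22234 bp upstream of the Ccl4 TSS. Its strength was 4.84 in replicate 1 and 1.26 in replicate 2, above 89.2% and 71.6% of all peaks of the replicate. A second peak beside it (chr11:83639621-83639800 in replicate 1) had strengths of 2.36 and 1.91. The first was the strongest of the group in replicate 1 and the second in replicate 2. Both were stronger in each replicate than the Ccl4 promoter, at 1.13 and 0.363. The nearest annotated protein-coding TSS was that of Rpl9-ps1, so the annotation does not tie them to either chemokine. Footprints of both replicates in the first peak covered GTGGTTACC and a run of C near its end.

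**Figure D4:**
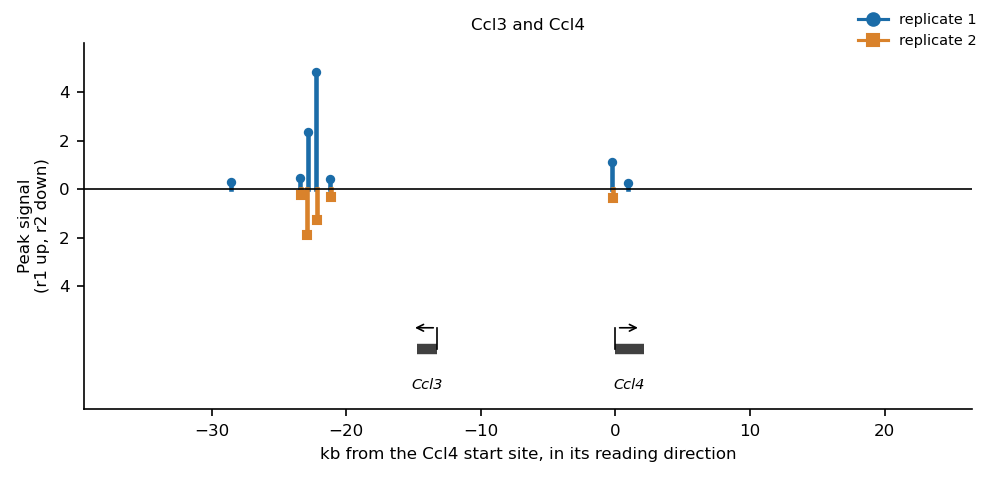
Peaks in the windows of Ccl3 and Ccl4 by distance from the Ccl4 start site (kb, horizontal axis), with the deposited signal of replicate 1 upward and replicate 2 downward, and gene bodies with arrows in the direction of reading below. Promoter peaks of genes outside the family are not drawn. The 4.84 and 1.26 peak stands 22234 bp before the Ccl4 start site, and the Ccl4 promoter peaks (1.13 and 0.363) are smaller.

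Ccl28 had a closed promoter and a strong peak in its intron. That peak lay 8141 bp downstream of the TSS, with strengths of 4.53 in replicate 1 and 2.76 in replicate 2, above 88.4% and 87.5% of all peaks. The sequence TGACGTCA occurred in it 2 times, both wholly within footprints of both replicates. The copies lie in a stretch that is repeated 2 times in a row, so they are not independent. Each repeat also held the NF-kB match GGGAGTCCCC, with 0 and 1 of its 10 bases in a footprint of both replicates. TGACGTCA was searched for after the sequence had been seen. It was present in 1 of the 59 distal peaks of the family in replicate 1 and 1 of 67 in replicate 2, against 0.452% and 0.337% of all distal peaks.

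Ccl17, also closed at its promoter, had its strongest distal peak 2527 bp downstream of the TSS, with the same bounds in both replicates. Its strength was 1.46 in replicate 1 and 3.41 in replicate 2, above 69.4% and 90.4% of all peaks. This peak held 4 and 3 footprints, and 72 of its 200 bases lay in a footprint of both replicates. A match to the RUNX motif made up 6 of these bases, outside the longest run of them. That motif was present in 21.9% of all distal peaks in replicate 1 and 19.9% in replicate 2. Of the neighbours in the same cluster, Ccl22 had a shared peak of 0.628 and 0.334 at 11630 bp upstream of its TSS, and Cx3cl1 one of 0.888 and 0.789 at 13686 bp downstream. Both were weaker than the Ccl17 peak in each replicate.

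Ccl1 was closed at its promoter too, with a peak of 3.12 in replicate 1 and 3.13 in replicate 2 at 4802 bp downstream of the TSS, above 83.9% and 89.2% of all peaks. Its CTCF match, CCACTAGAGGGC, lay wholly in a footprint of both replicates, with 12 of 12 bases. CTCF is a zinc-finger protein that anchors chromatin loops. Ccl1 had 7 distal peaks in replicate 1 and 9 in replicate 2. The gene record of Ccl1 extends far upstream of the TSS used here, so its window of 179 kb is the longest of the family, and its density was 3.91 and 5.03 per 100 kb.

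At the Cxcl9 and Cxcl10 pair, a shared peak of 0.873 and 0.530 lay 4861 bp upstream of the Cxcl10 TSS in an intron of Art3. The strongest shared distal peak of the Cxcl9 window (2.17 and 3.35) lay 15569 bp downstream of the Cxcl9 TSS and nearest to the TSS of Sdad1. Xcl1 had one of 1.64 and 1.05 at 24643 bp upstream of its TSS, and Ccl5, the T cell gene, one of 0.628 and 0.369 at 19852 bp upstream. For Ccl2, Ccl7 and Ccl11 a single shared peak (0.738 and 0.973), between genes and 2528 bp downstream of the Ccl7 TSS, served all 3 windows. Cxcl12 had a shared peak of 0.862 and 1.35 at 1515 bp upstream, so its locus held an open element in both animals although its promoter did not.

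**Figure D5:**
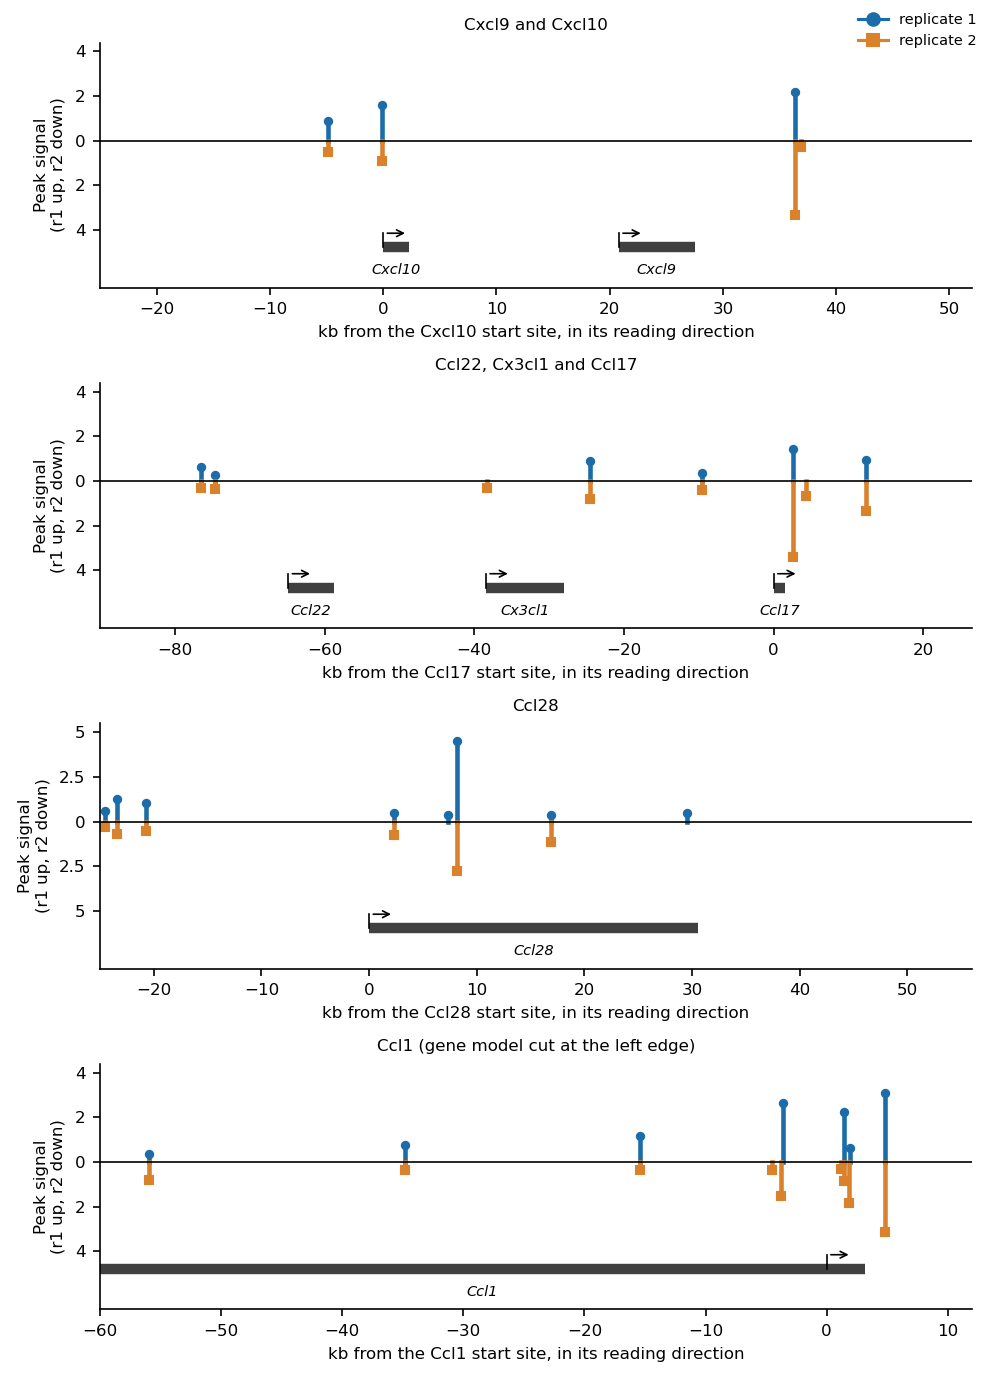
Peaks at 4 chemokine loci by distance from the named start site (kb), with the deposited signal of replicate 1 upward and replicate 2 downward and gene bodies with arrows below; promoter peaks of genes outside the family are not drawn. In their panels, the tallest peaks of each replicate lie 8141 bp into Ccl28 (4.53 and 2.76), 2527 bp after the Ccl17 start (1.46 and 3.41) and 4802 bp after the Ccl1 start (3.12 and 3.13).

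The windows of the family held 59 distinct distal peaks in replicate 1 and 67 in replicate 2, and a chemokine gene had the nearest protein-coding TSS for 36 and 40 of them. Peaks of one replicate that overlapped a peak of the other by at least 1 bp made up 89.8% and 77.6% of these, against 73.1% and 62.2% of all distal peaks. Their median strength was 0.815 and 0.720, against 0.691 and 0.570. In each replicate the distal peaks of the family were thus shared more often by count than distal peaks at large and had a higher median, and these differences were not tested. Of the 59 and 67, introns held 26 and 27, exons 8 in each replicate, and the space between genes 25 and 32. Intron here means inside a gene record but outside exons, so it includes peaks upstream of the Ccl1 TSS used here.

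Counted over the 21 merged windows, which cover 1616 kb, all peaks together, promoters of neighbours included, stood at 48.9 and 53.8 per Mb. Chromosomes 1 to 19 as a whole stood at 38.3 and 42.6 per Mb. That figure also covers stretches far from any gene, so it is not a like comparison for windows around genes. Beside the windows of all genes, the median distal density of the family was the lower one (2.88 against 4.62 per 100 kb). The windows held 79 and 87 peaks, of which 84.8% and 75.9% were shared, against 75.5% and 66.6% of all peaks. Footprints were sparse per gene, with a median of 5.78 per 100 kb in replicate 1 and 9.57 in replicate 2 (9.13 for the mean of both), against 21.2 and 25.5 over all genes (23.6). With only footprints inside peaks, promoter peaks included, the medians of the mean were 9.13 and 19.5. The footprint counts are therefore not a measure separate from the peaks. The windows held 252 and 259 footprints, and 52.4% and 49.8% of them overlapped one of the other replicate, against 50.9% and 45.5% of all footprints.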

How the data were processed

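DNase-seq files of thymus from 2 animals were used, 1 group without a contrast, so no test was made. Per the listing the authors deposited with each sample, each set of peaks, false discovery rates and footprints came from the mm10 alignments of 1 sample, without pooling. The sources used here do not give the aligner, the callers, their settings or the read depth. The signal of a peak is the authors' deposited value. In the deposited track, q-values (false discovery rates as the p-value measure) are listed only under 0.05. The same column of the footprint files is constant, so only positions were used.

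The longer peak list was used and the stricter one served as an alternative. Genes came from GENCODE M21 (basic), with 27 duplicated symbols left out. Sequence came from RefSeq GRCm38.p6. Word uniqueness was counted over chromosomes 1 to 19, X and Y with 32-base words. Coordinates are 1-based. Scripts ran in Python 3.11.15 with NumPy 2.4.6 and pandas 2.3.3 and were tested on simulated intervals and sequences. The members, gene lists, motifs and alternatives were chosen with earlier results of these data known. Every member is accounted for; 1 gene outside the family is not reported here. Full values were given for members with a promoter peak in either replicate, and for distal peaks the 6 densest windows and those at 0 were named; the other distal peaks named were chosen after their values were seen. Columns of other samples were not used. Alternatives covered windows, flanks, TSS sets, peak lists, overlap rules, repeated sequence and each replicate alone.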

Additional observations from a re-analysis of the deposited data

How the results depend on the processing

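No paired analysis was possible because the series has 1 group, so there are no groups to pair. The open chemokine promoters were the same 4 genes with windows of 250 and 1000 bp, with the stricter list and with all GENCODE transcripts (chosen after seeing the data). With 1 replicate alone the count was 7, whichever was left out. Receptors stayed between 7 and 9 and interleukin symbols between 6 and 12 under every alternative run. The median of distal peaks per 100 kb ranged from 1.73, with only peaks nearest to a chemokine TSS (chosen after seeing the data), to 3.59, without replicate 1; without replicate 2 it was 1.91, as with the stricter list, where the median of all genes was 2.83. The footprint median of 9.13 was 5.37 with flanks of 10 kb and 2.89 for footprints overlapping one of the other replicate (24.4 and 12.1 over all genes), and from 5.78 to 9.57 with 1 replicate left out. The mean share of peaks found in both replicates was 80.3%, and 70.0% when each peak had to cover 50% of the other; the cause was not tested. NF-kB matches were found at 8 or 9 genes. With 2 animals of unknown read depth, a weak promoter peak seen in 1 of them cannot be told apart from a difference in depth, and closed promoters are closed only at the depth of these libraries.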

Other observations

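In distal peaks, motif matches of the family were set beside those of all distal peaks. AP-1 matches were present in 9 of 59 member peaks in replicate 1 (15.3%) and 7 of 67 in replicate 2 (10.4%), against 6.62% and 6.43% of all distal peaks. NF-kB matches were present in 6.78% and 7.46%, against 3.11% and 2.66%, which rests on 4 and 5 peaks. RUNX matches, a motif of T cell regulators, were present in 20.3% and 19.4%, against 21.9% and 19.9%, and ETS matches in 57.6% and 49.3%, against 55.1% and 51.4%. The CTCF motif, which no chemokine promoter held, was present in 5 and 8 distal peaks (8.47% and 11.9%), against 6.68% and 7.50%. Overlapping windows mean that some of these peaks belong to several genes, and no test was made.

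Among interleukin genes, Il16 and Il34 had the strongest open promoters in replicate 1, with strengths of 12.2 and 8.58, and 3.02 and 2.02 in replicate 2. Il2, the growth factor of activated T cells, had a promoter peak of 0.561 in replicate 1 alone, and Il7, which stromal cells make for thymocytes, one of 0.225 in replicate 2 alone.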
